A study of Mus musculus with 24 samples.

Results

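Translation initiation factors are the proteins that bring the small ribosomal subunit, the initiator methionyl tRNA and a messenger RNA together at the start codon. The genes described here are all those whose symbol begins with Eif1 to Eif6, symbols marked as pseudogenes left out, with a mean level of at least 1 CPM (counts scaled to library size) over 24 libraries. Of 58 such symbols among 32719 genes in the count files, 54 reached that level, and all 54 also passed the filter on low counts that left 15599 genes to test. The 4 symbols under the threshold were Eif2c5, Eif4a3l1, Eif4a3l2 and Eif4e1b, of which Eif4a3l2 was highest at 0.0774 CPM. The members nearest above it were Eif3j2 at 1.38 CPM and Eif2s3y at 5.51 CPM. The members comprised 5 genes of eIF1 and eIF1A, 15 around eIF2 (4 of eIF2, 5 of eIF2B, 4 kinases, Eif2a and Eif2d), 14 of eIF3, 11 eIF4 factors, 3 eIF4E-binding proteins, Eif4enif1, and 5 genes of eIF5, eIF5A, eIF5B and eIF6.

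The cells were mouse primary cortical astrocytes from newborn pups that carry a floxed insulin receptor gene, labelled DIV14. Control cells (IRflox) had received an adenovirus for GFP alone and receptor knockout cells (IRKO) an adenovirus for Cre:GFP, so genotype and virus cannot be told apart. All cells were used 5 days after infection and were starved of serum overnight. Each ligand was given at 100 nM for 6 h, insulin to some cells and IGF-1 to others, beside a vehicle, which made 6 groups of 4 libraries. The design asks which genes each ligand changes, and whether loss of the insulin receptor alters that change. Whether replicate libraries stem from different cultures is not stated, so a p-value here is a measure of the spread between libraries, which may be technical.

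The libraries held 15429688 to 19010986 gene counts. Insr, the floxed gene, stood at 61.6 ± 3.60 CPM (SD, n = 4) in IRflox and 40.4 ± 2.47 CPM in IRKO vehicle libraries, counted over the whole gene and not over the deleted stretch alone. All 10 astrocyte markers were at 1 CPM or more, with group medians of their sum from 4179 to 4856 CPM. In IRflox libraries that sum was 4503 to 4785 with vehicle, 4470 to 4748 with insulin and 4131 to 4268 with IGF-1. In IRKO libraries it was 4728 to 4983, 4681 to 4829 and 4453 to 4493, so the IGF-1 libraries lay below the vehicle libraries in both genotypes. The 12 microglia markers were also present, none at 0, and their sum moved with ligand and genotype. Its median in IRflox libraries was 1070.0 CPM (range 1023 to 1102) with vehicle, 946 CPM (range 889 to 954) with insulin and 951 CPM (range 919 to 980.0) with IGF-1. In IRKO libraries it was 1265 CPM (range 1233 to 1283), 1077 CPM (range 1070.0 to 1095) and 1070.0 CPM (range 1045 to 1121). Group medians of the sums were 318 to 467 CPM for 10 oligodendrocyte lineage markers, lowest in the vehicle groups, 312 to 332 CPM for 9 fibroblast and mural markers and 9 to 12 CPM for 7 endothelial markers. Each marker had some counts, but only 8, 8 and 3 of them had a mean of at least 1 CPM. The sum of 10 neuronal markers, only 5 of them with a mean of at least 1 CPM, was 148 to 153 CPM in IRflox vehicle, 172 to 182 in insulin and 168 to 181 in IGF-1 libraries. In IRKO libraries it was 127 to 138, 145 to 150 and 147 to 156. It was thus higher with ligand in both genotypes and lower in IRKO libraries under each condition, with no overlap. The highest neuronal markers by mean were Stmn2 at 77.4 CPM and Map2 at 55.65 CPM. Rbfox3, Snap25, Dcx, Nefl and Slc17a7 were at 0.0848 to 0.380 CPM, so the sum is not read as a level of neurons. In bulk libraries fewer cells of a type and less RNA per cell cannot be told apart, and the part of these cells in the results was not tested. Fits with the microglia score as a covariate are given below. The microglia sum did not overlap between vehicle and treated libraries, or between genotypes under any condition. In those fits the score and the groups can hardly be told apart, so a lost or gained call is not read as a part of microglia.

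As background, initiation is regulated mainly at the cap and at the tRNA. The cap complex eIF4F is made of the cap-binding eIF4E, the helicase eIF4A and the scaffold eIF4G. The 4E-binding proteins hold eIF4E back and release it when mTORC1, a kinase that insulin and IGF-1 activate, phosphorylates them. eIF2 brings the tRNA with GTP, is recharged by eIF2B, and is inhibited when stress kinases phosphorylate it. The measurements here are messenger RNA levels and hold nothing on phosphorylation or protein.

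Most initiation factor genes were higher after 6 h with either ligand. With insulin in IRflox cells 32 of 54 rose and 6 fell, where 24.3% of all tested genes rose and 21.4% fell. With IGF-1 in IRflox cells 34 rose and 5 fell, against 26.4% and 24.4% of all genes. In IRKO cells insulin gave 34 rises and 3 falls, against 24.7% and 21.7%, and IGF-1 gave 32 rises and 6 falls, against 26.9% and 25.1%. The median log2 change of the 54 genes was 0.21, 0.23, 0.18 and 0.22, beside 0.001, -0.0037, 0.0086 and -0.00069 for all tested genes. Values given as 4 in a row here and below follow this order: insulin and IGF-1 against vehicle in IRflox, then insulin and IGF-1 against vehicle in IRKO cells. A gene counted as risen or fallen had an adjusted p under 0.05 in edgeR's quasi-likelihood test over all 15599 genes. Both ligands were compared with the same vehicle libraries within a genotype, so those comparisons share their controls. With the microglia score as a covariate, 29, 34, 27 and 30 of the 54 rose and 3, 3, 2 and 3 fell. The shares of all tested genes in that fit are not given here, so these counts have no background.

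**Figure D1:**
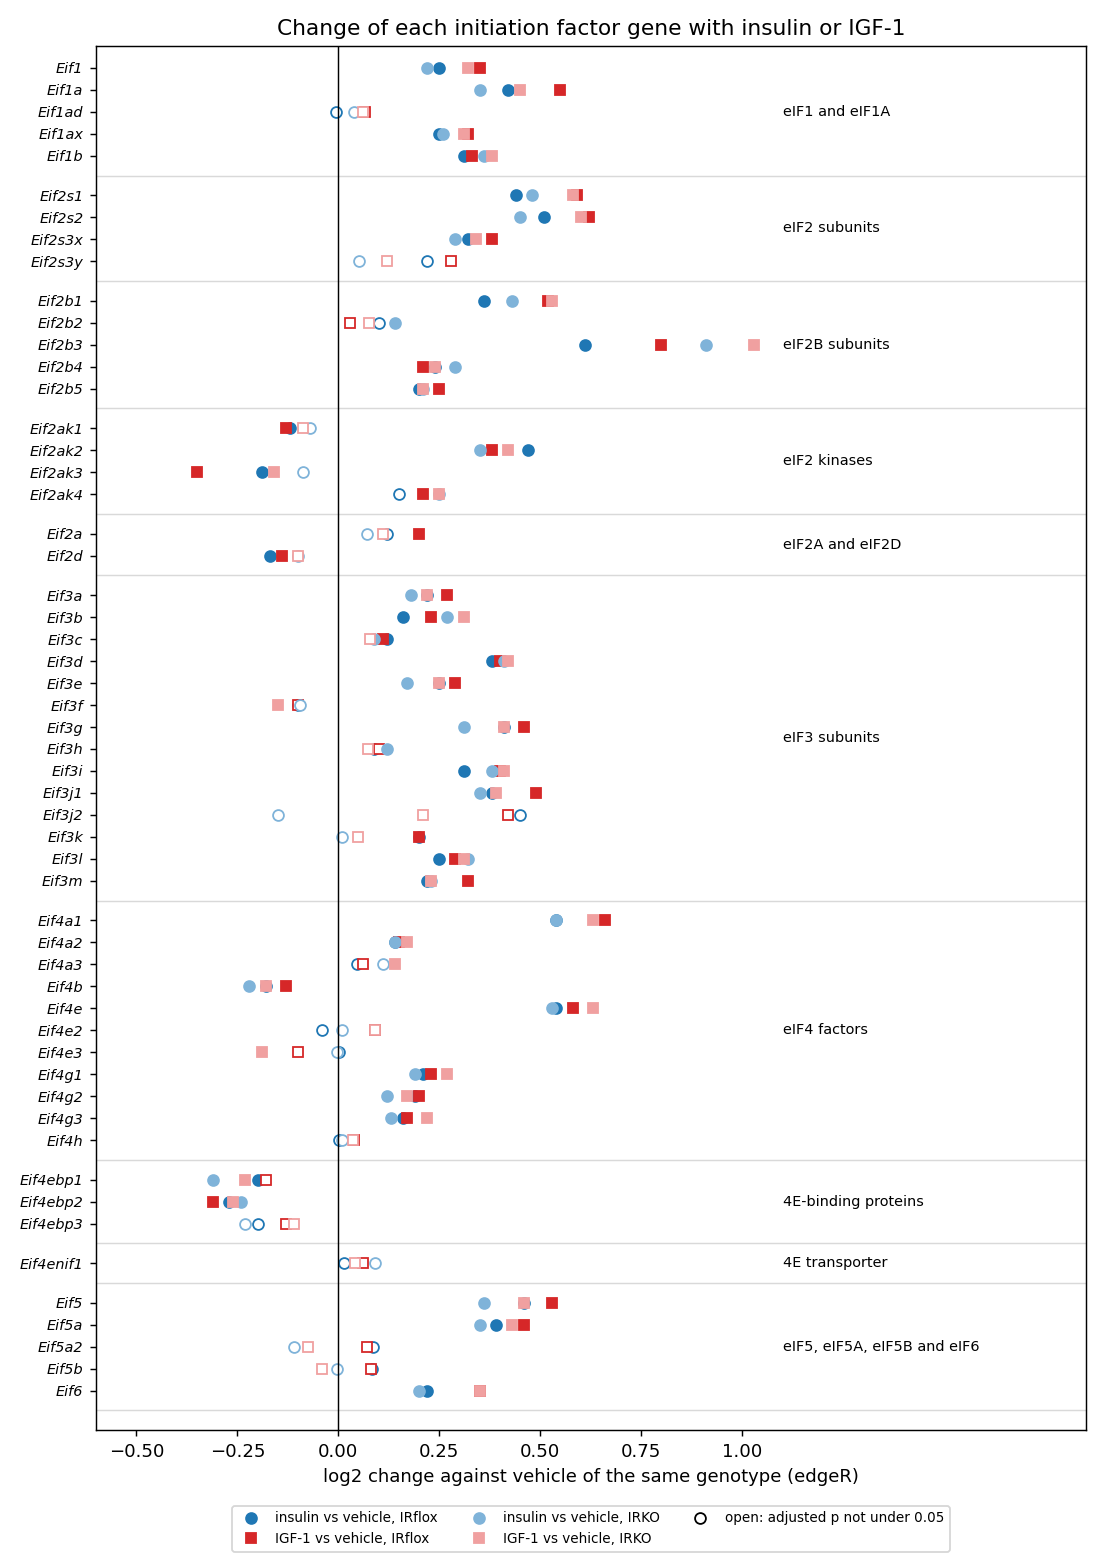
Log2 change against vehicle (x axis) of each of the 54 genes (rows, grouped by role) with insulin (circles) or IGF-1 (squares), in IRflox (dark) and IRKO cells (pale). Open symbols did not pass an adjusted p of 0.05. Most symbols lie to the right of 0, while those of Eif2ak1, Eif2ak3, Eif2d, Eif3f, Eif4b, Eif4ebp1, Eif4ebp2 and Eif4ebp3 lie to its left.

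Sequences at or before the start sites of 5 genes are shown so that their letters can be compared: 3 genes of eIF4F that rose, Eif3f, which did not, and Eif4ebp2, which fell. Each is a stretch of 140 bases of the RefSeq promoter (GRCm38.p6), 5′ to 3′ on the gene's strand. Counted with the start site as 1 and the base before it as -1, 4 of them run from position -120 to 20, and that of Eif4a1 runs from -219 to -80, farther before the start, so that its match is shown. Capitals mark CACGTG, the E-box letters that proteins such as Myc and TFEB can bind. These letters read the same on both strands, and 7.15% of all 32851 promoter windows of 300 bases in the table hold them.
Eif4e, chr3:138527148-138527287, plus strand: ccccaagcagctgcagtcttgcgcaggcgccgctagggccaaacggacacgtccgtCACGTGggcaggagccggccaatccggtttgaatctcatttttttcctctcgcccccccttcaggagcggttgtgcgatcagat
Eif4a1, chr11:69672503-69672642, minus strand: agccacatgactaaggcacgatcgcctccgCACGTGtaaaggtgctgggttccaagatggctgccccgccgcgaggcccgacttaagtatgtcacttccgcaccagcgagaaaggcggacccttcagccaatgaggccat
Eif4g1, chr16:20672607-20672746, plus strand: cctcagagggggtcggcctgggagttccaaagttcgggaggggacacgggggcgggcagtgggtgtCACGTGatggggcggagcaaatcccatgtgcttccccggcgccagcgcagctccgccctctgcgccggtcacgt
Eif3f, chr7:108934295-108934434, plus strand: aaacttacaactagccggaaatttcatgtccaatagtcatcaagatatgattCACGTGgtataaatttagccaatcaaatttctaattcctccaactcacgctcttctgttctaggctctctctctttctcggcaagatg
Eif4ebp2, chr10:61452650-61452789, minus strand: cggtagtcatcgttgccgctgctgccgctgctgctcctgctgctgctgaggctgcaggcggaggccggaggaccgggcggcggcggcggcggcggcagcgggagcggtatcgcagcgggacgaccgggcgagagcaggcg

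Eif4e holds the letters 64 bases before the start, Eif4a1 189 before it, Eif4g1 54 before it and Eif3f 68 before it. The 300-base window of Eif4e has another match 228 bases before the start, outside the stretch shown, and that of Eif4g1 another that begins 15 bases after it and runs past the end of the stretch. The window of Eif4ebp2 has no match. These genes were chosen with their matches known, so that 4 of the 5 hold the letters follows from the choice. RefSeq entries were found for 43 of the 54 members (79.6%), and 10 of those held the letters in at least 1 window, beside 8.09% of all 27025 genes in the table. Under 80% of the members have an entry and the table is not limited to tested genes, so these shares were not compared. A match describes letters and not a bound site, and RefSeq start sites can lie inside the gene bounds given below.

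In the eIF4 group the cap-binding gene and the main helicase gene had the largest rises. Eif4e, of the protein that binds the cap (chromosome 3, 138526179 to 138559696, plus strand, GRCm38 here and below), was at 94.5, 97.2, 109 and 106 CPM with vehicle, 141, 142.5, 157 and 153 CPM with insulin and 148, 154, 154 and 154 CPM with IGF-1 in IRflox cells. The IRKO libraries held 102.5, 93.45, 93.8 and 97.6 CPM with vehicle, 143, 133, 142 and 139 CPM with insulin and 141, 156.5, 149 and 153 CPM with IGF-1. Every treated library lay above every vehicle library of its genotype. The log2 changes were 0.54, 0.58, 0.53 and 0.63 (standard error 0.045), with adjusted p from 1.73e-15 to 5.33e-13 in edgeR.

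Eif4a1, of the eIF4A helicase (chromosome 11, 69666936 to 69672423, minus strand), was at 492, 531, 568 and 540.4 CPM with vehicle, 748, 765, 774 and 803 CPM with insulin and 806.5, 869, 821 and 875 CPM with IGF-1 in IRflox cells. In IRKO cells the levels were 513, 484, 514 and 524 CPM with vehicle, 739, 723, 763 and 730.0 CPM with insulin and 773, 786, 805 and 794 CPM with IGF-1. The treated libraries were again all above the vehicle libraries, with log2 changes of 0.54, 0.66, 0.54 and 0.63 (standard error 0.038). The gene Gm22988 on the same strand shares 6.62% of its exon length, and close copies of Eif4a1 exist, so its level is less certain where reads fit more than 1 place.

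The other eIF4A genes moved less. Eif4a2, a close relative of Eif4a1, rose by 0.14, 0.15, 0.14 and 0.17 on the log2 scale (adjusted p 0.00265, 0.000975, 0.0019 and 0.000263, edgeR). It shares 13.3% of its exon length with Rfc4 on the opposite strand, which non-stranded libraries cannot separate. Its insulin values lost the call in both genotypes with the microglia score in the fit (0.15 and 0.16, adjusted p 0.0555 and 0.0684). Eif4a3, whose protein sits in the exon junction complex, had log2 changes of 0.045, 0.061, 0.11 and 0.14, of which the last passed (adjusted p = 0.0135). That call was lost without IRKO vehicle replicate 1 (0.11), without IRKO IGF-1 replicate 1 (0.12) or 3 (0.089), and with the microglia score (0.18, adjusted p = 0.121). Per kilobase of exon, IRflox vehicle libraries held 123 ± 7.22 CPM of Eif4a1, 54.9 ± 1.40 of Eif4a2 and 38.5 ± 1.26 of Eif4a3 (SD, n = 4), levels that lay apart by more than their spread.

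The scaffold genes rose by smaller steps. Eif4g1, of the scaffold that joins eIF4E and eIF4A, was at 579 ± 8.79 CPM with vehicle, 671 ± 13.9 with insulin and 680.5 ± 17.1 with IGF-1 in IRflox cells (SD, n = 4), and its log2 changes were 0.21, 0.23, 0.19 and 0.27 (standard error 0.033). Eif4g2, of a relative that lacks the eIF4E-binding region, had the highest CPM of all members, 1562 ± 48.3 in IRflox vehicle libraries, and rose by 0.19, 0.20, 0.12 and 0.17 (standard error 0.032). Eif4g3 rose by 0.16, 0.17, 0.13 and 0.22 (standard error 0.036). In all 3 genes the treated libraries lay above the vehicle libraries of their genotype. Eif4g3, with the microglia score in the fit, kept its call only with IGF-1 in IRflox cells, with values of 0.068, 0.11, 0.028 and 0.11 (adjusted p 0.37, 0.0376, 0.767 and 0.196). Eif4g2 lost its call with insulin in IRKO cells (0.11, adjusted p = 0.123).

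Eif4b and Eif4h, whose proteins both stimulate the helicase, did not rise. Eif4b (chromosome 15, 102073773 to 102097173, plus strand) was at 277, 277, 278 and 280.1 CPM with vehicle, 249, 246, 243 and 243 CPM with insulin and 254.5, 262, 239.6 and 259 CPM with IGF-1 in IRflox cells. IRKO cells had 269, 296, 277 and 275 CPM with vehicle, 240.1, 244, 234 and 242 CPM with insulin and 248, 244, 247 and 245 CPM with IGF-1. Every treated library lay below every vehicle library of its genotype. The log2 changes were -0.18, -0.13, -0.22 and -0.18 (standard error 0.034, adjusted p 2.58e-05, 0.00129, 1.27e-06 and 2.03e-05, edgeR). Eif4h had values near 0, 0.001, 0.038, 0.0096 and 0.036, none past the threshold, and its insulin values changed sign under other scalings.

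The relatives of Eif4e did not rise with it. Eif4e2, whose protein binds the cap without eIF4G and can repress translation, had log2 changes of -0.041, 0.091, 0.0095 and 0.092, none past the threshold. Eif4e3 had 0.0019, -0.10, -0.0036 and -0.19, and the fall with IGF-1 in IRKO cells passed (adjusted p = 0.0182). That call was lost without IRKO vehicle replicate 2 (-0.14), without IRKO IGF-1 replicate 3 (-0.17), and with the microglia score (-0.19, adjusted p = 0.271). The insulin value of Eif4e2 in IRKO and that of Eif4e3 in IRflox cells changed sign under other scalings. Per kilobase of exon, Eif4e stood at 16.9 ± 1.14 CPM, Eif4e3 at 12.3 ± 0.718 and Eif4e2 at 11.5 ± 0.278 in IRflox vehicle libraries (SD, n = 4). With insulin they stood at 24.7 ± 1.26, 12.3 ± 0.789 and 11.2 ± 0.1165, so Eif4e was farther above both. Eif4enif1, of the protein that shuttles eIF4E into the nucleus, had 0.013, 0.061, 0.091 and 0.042 and passed in no comparison.

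**Figure D2:**
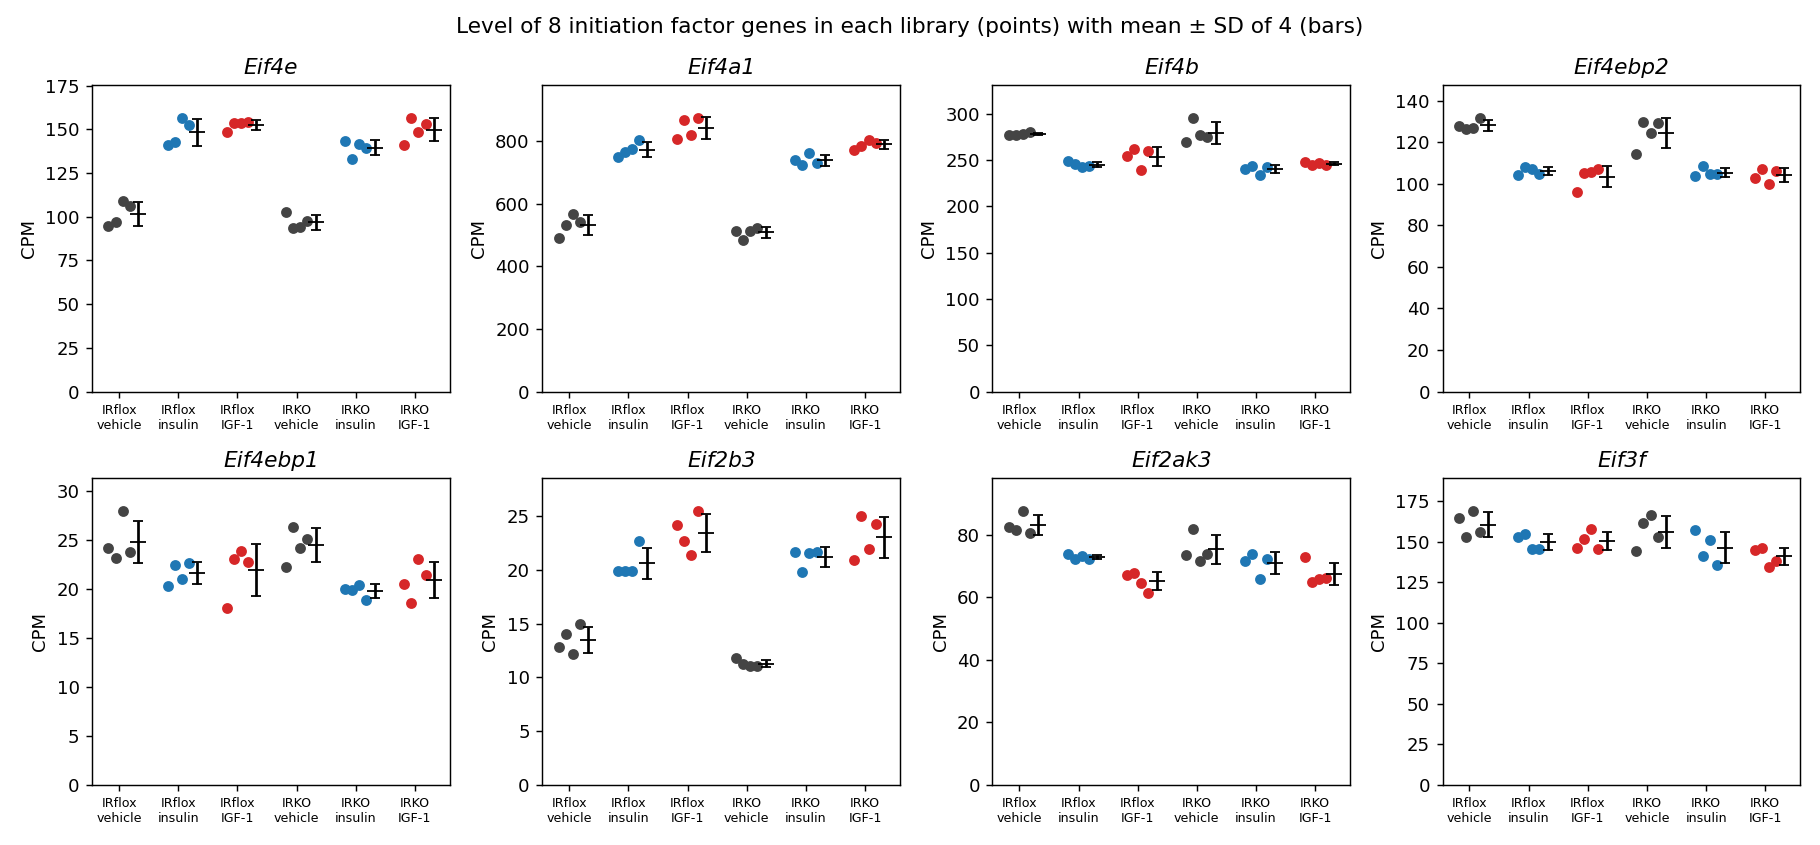
CPM (y axes, from 0) of 8 initiation factor genes in each of the 24 libraries, with the mean and SD of each group of 4 as bars. Eif4e, Eif4a1 and Eif2b3 are higher in all treated libraries, Eif4b and Eif4ebp2 are lower, and the groups of Eif4ebp1, Eif2ak3 and Eif3f overlap in some or all comparisons.

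The 3 genes of the eIF4E inhibitors had values below 0 in each comparison, although those of Eif4ebp3 passed in none and were above 0 with the microglia score in the fit (0.021, 0.0092, 0.019 and 0.17). Eif4ebp2 (chromosome 10, 61428491 to 61452661, minus strand), the most abundant of the 3 per kilobase, was at 128, 126, 127 and 132 CPM with vehicle, 104, 108, 107 and 104.5 CPM with insulin and 95.9, 105, 105.5 and 107 CPM with IGF-1 in IRflox cells. In IRKO cells it was at 114, 129.9, 124 and 129 CPM with vehicle, 103.5, 108.5, 105 and 105 CPM with insulin and 103, 107, 100.0 and 106 CPM with IGF-1. Every treated library lay below every vehicle library of its genotype, although the lowest IRKO vehicle library, replicate 1, was near the treated ones. The log2 changes were -0.27, -0.31, -0.24 and -0.26 (standard error 0.041, adjusted p 5.17e-07, 3.14e-08, 4.61e-06 and 1.17e-06, edgeR).

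Eif4ebp1 (chromosome 8, 27260329 to 27276674, plus strand) was less abundant and its libraries spread more. It was at 24.2, 23.2, 27.98 and 23.8 CPM with vehicle, 20.35, 22.5, 21.03 and 22.6 CPM with insulin and 18.04, 23.1, 23.9 and 22.7 CPM with IGF-1 in IRflox cells. The IRKO libraries held 22.2, 26.35, 24.2 and 25.1 CPM with vehicle, 20.03, 19.9, 20.5 and 18.8 CPM with insulin and 20.55, 18.6, 23.05 and 21.5 CPM with IGF-1. The insulin libraries lay below the vehicle libraries in both genotypes, and the IGF-1 libraries overlapped them. Its log2 changes were -0.20, -0.18, -0.31 and -0.23 (standard errors 0.078 to 0.079), with adjusted p of 0.0356, 0.0556, 0.00137 and 0.0142 in edgeR, so IGF-1 in IRflox cells did not pass. The insulin call in IRflox cells was lost without vehicle replicate 3 (-0.14), insulin replicate 1 (-0.19) or insulin replicate 3 (-0.20), and the IGF-1 call in IRKO cells without vehicle replicate 2 (-0.19) or IGF-1 replicate 2 (-0.19). The IGF-1 value in IRflox cells passed in 13 of 24 fits that each left out a library (-0.22 to -0.11). It passed in no comparison with the microglia score in the fit (-0.13, -0.14, -0.23 and -0.15, adjusted p 0.472, 0.294, 0.207 and 0.5).

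Eif4ebp3 had log2 changes of -0.20, -0.13, -0.23 and -0.11 (standard errors 0.12 to 0.13) and passed in no comparison. The insulin value in IRKO cells passed when IRKO insulin replicate 3 was left out (adjusted p = 0.0127, edgeR). It shares 67.3% of its exon length with Maskbp3 on the same strand, so its count is uncertain. As a description chosen after the values were seen, the summed level per kilobase of Eif4ebp1 and Eif4ebp2 was set against that of Eif4e. In IRflox cells the sum was 1.98 ± 0.09305 times Eif4e with vehicle, 1.14 ± 0.0608 times with insulin and 1.097 ± 0.0623 times with IGF-1 (SD, n = 4). In IRKO cells the ratio was 2.03 ± 0.197, 1.175 ± 0.0542 and 1.105 ± 0.0509. The vehicle and treated groups did not overlap in either genotype, which largely follows from the Eif4e and Eif4ebp2 values above and adds nothing to them.

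The genes of eIF2 itself rose, apart from the Y-linked copy. Eif2s1, of the alpha subunit that the stress kinases phosphorylate, was at 81.2, 85.2, 90.95 and 86.1 CPM with vehicle, 111, 115, 120.3 and 121 CPM with insulin and 127, 129, 123.5 and 136 CPM with IGF-1 in IRflox cells. In IRKO cells the levels were 88.8, 72.55, 82.1 and 83.3 CPM with vehicle, 114.5, 110.3, 110.2 and 119 CPM with insulin and 118, 124, 121 and 126 CPM with IGF-1. Every treated library lay above the vehicle libraries, with log2 changes of 0.44, 0.59, 0.48 and 0.58 (standard errors 0.047 to 0.048). Eif2s2, of the beta subunit, rose by 0.51, 0.62, 0.45 and 0.60 (standard error 0.043), and Eif2s3x, of the gamma subunit, by 0.32, 0.38, 0.29 and 0.34 (standard error 0.041). Eif2s3y, the Y-linked gamma gene, had group means of 4.62 to 6.08 CPM, and its changes of 0.22, 0.28, 0.05 and 0.12 (standard errors 0.14 to 0.15) passed in no comparison. Reads that fit both gamma genes could be split between them, so these 2 are less certain.

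The exchange factor eIF2B held the largest rise of the 54 genes in each comparison. Eif2b3, of the gamma subunit (chromosome 4, 117019402 to 117087306, plus strand), was at 12.8, 14.01, 12.2 and 14.96 CPM with vehicle, 19.9, 19.9, 19.9 and 22.7 CPM with insulin and 24.2, 22.7, 21.4 and 25.5 CPM with IGF-1 in IRflox cells. IRKO cells had 11.8, 11.3, 11.04 and 11.02 CPM with vehicle, 21.7, 19.8, 21.6 and 21.7 CPM with insulin and 20.95, 25.01, 21.96 and 24.3 CPM with IGF-1. Treated and vehicle libraries were widely apart. The log2 changes were 0.61, 0.80, 0.91 and 1.03 (standard errors 0.078 to 0.08), the last a rise of 104%. Per kilobase of exon it was also the lowest eIF2B gene, at 2.07 ± 0.1885 CPM in IRflox vehicle libraries, below 11.45 ± 0.931 for Eif2b1, 18.9 ± 1.38 for Eif2b4, 22.7 ± 1.24 for Eif2b5 and 32.2 ± 1.65 for Eif2b2 (SD, n = 4).

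The other eIF2B genes rose by less. Eif2b1, of the alpha subunit, rose by 0.36, 0.52, 0.43 and 0.53 (standard errors 0.072 to 0.073), and Eif2b5, of the catalytic epsilon subunit, by 0.20, 0.25, 0.21 and 0.21 (standard errors 0.046 to 0.047). Eif2b4, of the delta subunit, rose by 0.24, 0.21, 0.29 and 0.24 (standard error 0.059) and shares 7.85% of its exon length with Snx17 on the opposite strand. Eif2b2, of the beta subunit, had 0.10, 0.03, 0.14 and 0.076, of which insulin in IRKO cells passed (adjusted p = 0.0218). That call was lost without any 1 of IRKO vehicle replicates 1, 2 and 4 or IRKO insulin replicates 1, 2 and 3, in fits that ran from 0.12 to 0.16. Of the 5 genes, 4, 4, 5 and 4 rose and 0 fell.

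The 4 eIF2 kinase genes moved in different directions. Eif2ak2, of PKR, which double-stranded RNA activates, rose by 0.47, 0.38, 0.35 and 0.42 (standard error 0.043), with treated libraries all above vehicle. Eif2ak3, of PERK, which stress in the endoplasmic reticulum activates (chromosome 6, 70844515 to 70905245, plus strand), was at 82.6, 81.5, 87.55 and 80.5 CPM with vehicle, 73.65, 72.3, 73.1 and 72.3 CPM with insulin and 67.2, 67.7, 64.6 and 61.2 CPM with IGF-1 in IRflox cells. In IRKO cells it was at 73.6, 81.96, 71.7 and 73.96 CPM with vehicle, 71.4, 73.9, 65.8 and 72.3 CPM with insulin and 72.8, 64.98, 65.8 and 66.2 CPM with IGF-1. Treated libraries lay below vehicle in IRflox cells and overlapped it in IRKO cells. Its log2 changes were -0.19, -0.35, -0.088 and -0.16 (standard errors 0.047 to 0.048), and the insulin value in IRKO cells did not pass (adjusted p = 0.128).

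Eif2ak1, of the heme-controlled kinase HRI, fell with both ligands in IRflox cells and had log2 changes of -0.12, -0.13, -0.069 and -0.088. It shares 11.6% of its exon length with Aimp2 on the opposite strand. Its IGF-1 call was lost without IRflox IGF-1 replicate 2 (-0.12). Eif2ak4, of GCN2, which uncharged tRNA activates, had 0.15, 0.21, 0.25 and 0.25 and rose past the threshold in all but the first comparison (adjusted p = 0.0695 there). Its call in IRflox cells was lost without IGF-1 replicate 1 (0.13). Its insulin value in IRflox cells passed without insulin replicate 2 (adjusted p = 0.0261, edgeR), a library flagged below for this gene. No call of Eif2ak1 or Eif2ak4 was kept with the microglia score in the fit. The values were then -0.037, -0.078, 0.027 and 0.02 for Eif2ak1 and -0.037, 0.087, 0.038 and 0.017 for Eif2ak4.

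Eif2a and Eif2d encode single-chain factors that can bring tRNA to the ribosome outside the usual eIF2 route. Eif2a had log2 changes of 0.12, 0.20, 0.072 and 0.11 and passed with IGF-1 in IRflox cells (adjusted p = 0.00145). Eif2d fell with both ligands in IRflox cells and had -0.17, -0.14, -0.10 and -0.10. Its IGF-1 call was lost without IRflox vehicle replicate 4 (-0.13), IGF-1 replicate 2 (-0.14) or IGF-1 replicate 3 (-0.10), and both calls with the microglia score (-0.15 and -0.13, adjusted p 0.217 and 0.147).

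eIF3 is the large scaffold that holds the messenger RNA on the small ribosomal subunit. Of its 14 genes, 11, 11, 11 and 9 rose and 0, 0, 0 and 1 fell, with medians of 0.23, 0.29, 0.21 and 0.24 on the log2 scale. The largest mean rises over the 4 comparisons were those of Eif3j1, Eif3d, Eif3g and Eif3i. Eif3d, of a subunit that can itself bind the cap of some messages, was at 113, 123.5, 119 and 114 CPM with vehicle, 149, 156, 148 and 157 CPM with insulin and 149, 156, 150.0 and 165 CPM with IGF-1 in IRflox cells. The IRKO libraries held 111, 113, 106 and 111 CPM with vehicle, 147, 139.9, 158 and 139 CPM with insulin and 149, 145, 142 and 152 CPM with IGF-1. The treated libraries were all above the vehicle libraries, with log2 changes of 0.38, 0.40, 0.41 and 0.42 (standard error 0.042). Eif3g rose by 0.41, 0.46, 0.31 and 0.41 (standard error 0.061) and Eif3i by 0.31, 0.40, 0.38 and 0.41 (standard error 0.052). Eif3j1, of a loosely bound subunit near the decoding centre, rose by 0.38, 0.49, 0.35 and 0.39 (standard error 0.048). It shares 20.2% of its exon length with Spg11 on the opposite strand, so the rise is less certain. Its near copy Eif3j2 was close to the level threshold, with changes of 0.45, 0.42, -0.15 and 0.21 (standard errors 0.31 to 0.34) that passed in no comparison.

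Eif3f (chromosome 7, 108934417 to 108942951, plus strand), of a core subunit, was the eIF3 gene with values below 0 in each comparison. It was at 165, 153, 169 and 156 CPM with vehicle, 153, 155, 145 and 146 CPM with insulin and 146, 152, 158 and 146 CPM with IGF-1 in IRflox cells. In IRKO cells the levels were 144, 162, 167 and 153 CPM with vehicle, 157, 141, 151.5 and 136 CPM with insulin and 145, 146, 135 and 138 CPM with IGF-1. Treated and vehicle libraries overlapped in all 4 comparisons. The log2 changes were -0.10, -0.10, -0.094 and -0.15 (standard error 0.046), and the last passed (adjusted p = 0.00605, edgeR). With the microglia score in the fit the values were 0.024, -0.013, 0.046 and 0.0087 (adjusted p 0.835, 0.875, 0.692 and 0.95), so 3 of the 4 were above 0 and none passed. The other 3 values passed in 16, 4 and 7 of 24 fits that each left out a library.

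Eif3c, Eif3h and Eif3k had the next smallest mean changes. Eif3c had 0.12, 0.11, 0.088 and 0.079 (standard error 0.035), of which the last did not pass (adjusted p = 0.0557). The call with insulin in IRKO cells was lost in 18 of 24 fits that each left out a library (0.05 to 0.091). In IRflox cells the insulin call was lost without vehicle replicate 2 (0.089) and the IGF-1 call without vehicle replicate 1 (0.089) or IGF-1 replicate 4 (0.084). Eif3h had 0.089, 0.10, 0.12 and 0.074 (standard error 0.046) and passed with insulin in IRKO cells (adjusted p = 0.0248), a call lost in 11 of 24 such fits (0.093 to 0.15). In IRflox cells it passed with insulin and with IGF-1 when vehicle replicate 3 was left out (adjusted p 0.0153 and 0.00823, edgeR). The insulin calls of Eif3c and Eif3h in IRKO and of Eif3c in IRflox cells were also lost with the microglia score. The log2 changes were then 0.10 (adjusted p = 0.233), 0.16 (adjusted p = 0.117) and 0.12 (adjusted p = 0.0879).

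Eif3k rose in IRflox cells and had log2 changes of 0.20, 0.20, 0.0088 and 0.049 (standard error 0.052). The test of the difference between genotypes gave -0.20 for insulin (95% interval -0.34 to -0.052, adjusted p = 0.884, edgeR) and -0.15 for IGF-1 (-0.29 to -0.0024, adjusted p = 0.935), neither past the threshold. Intervals here and below rest on the normal distribution and are slightly narrower than the test. The IGF-1 interval thus excludes 0, although the unadjusted p of that difference was not under 0.05. The other eIF3 genes, Eif3a, Eif3b, Eif3e, Eif3l and Eif3m, rose in each comparison, by 0.16 to 0.32. The calls of Eif3m were lost with the microglia score in all but IGF-1 in IRflox cells (0.13, 0.26, 0.14 and 0.12).

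**Figure D3:**
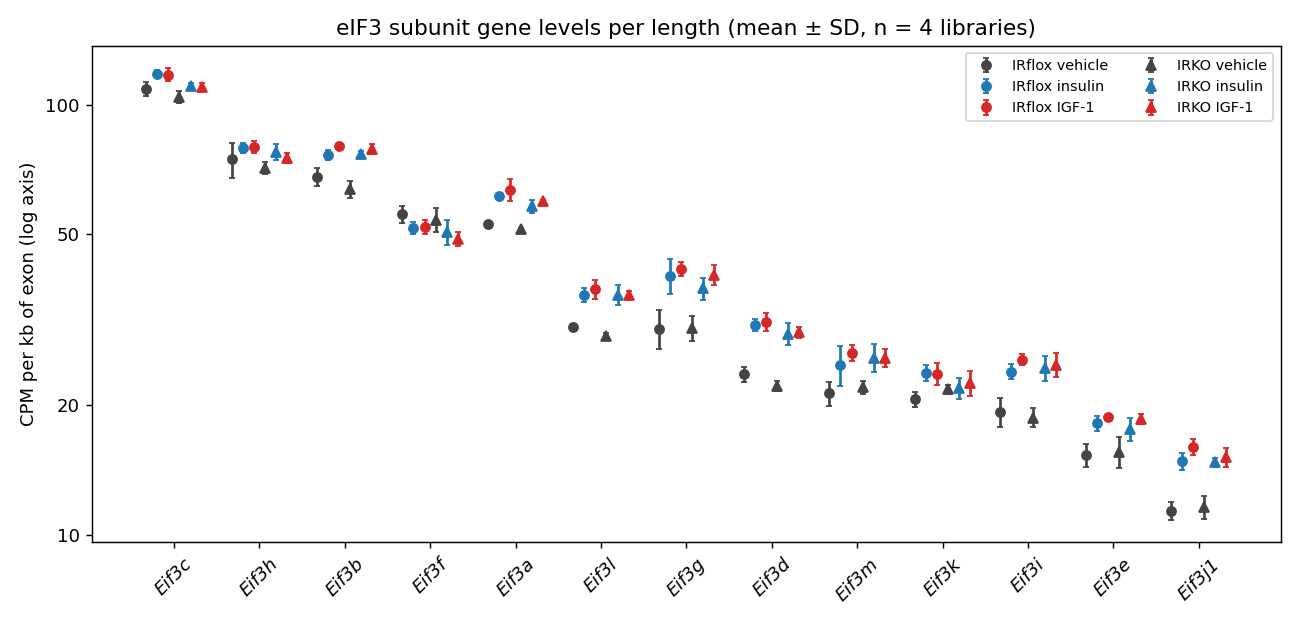
CPM per kilobase of exon (y axis, log scale) of 13 eIF3 genes, in the order of their IRflox vehicle level, as mean and SD of 4 libraries in each of the 6 groups. Eif3j2 is left out for its low level. Treated means lie above the vehicle mean of their genotype except in Eif3f.

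Per kilobase of exon the eIF3 genes were far from equal. In IRflox vehicle libraries Eif3c stood at 109 ± 4.0 CPM (SD, n = 4), above Eif3h at 74.7 ± 6.93 and Eif3b at 68.2 ± 3.29, which lay within their spread of each other. Eif3f at 55.6 ± 2.61 and Eif3a at 52.8 ± 1.01 followed, also close together. At the low end were Eif3e at 15.3 ± 0.916, Eif3j1 at 11.4 ± 0.540 and Eif3j2 at 0.413 ± 0.0900, each below the one before by more than their spread. Lengths are of all annotated exons joined, so a gene with long exons that are seldom used gets too low a level on this scale.

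The genes of eIF1 and eIF1A, which together guard the choice of start codon during scanning, rose. Eif1 rose by 0.25, 0.35, 0.22 and 0.32 (standard error 0.044) and its relative Eif1b by 0.31, 0.33, 0.36 and 0.38 (standard errors 0.059 to 0.06). Eif1a rose by 0.42, 0.55, 0.35 and 0.45 (standard errors 0.046 to 0.047), and the X-linked Eif1ax by 0.25, 0.32, 0.26 and 0.31 (standard error 0.038). Treated libraries lay above the vehicle libraries in these genes except for Eif1 with insulin in IRKO cells, where they overlapped. Eif1a and Eif1ax are near copies, and how reads that fit both were counted is not given in the sources used here. Eif1ad had -0.005, 0.066, 0.04 and 0.061, passed in no comparison, and shares 15.3% of its exon length with Banf1 on the opposite strand.

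Of the 5 genes of the later steps, 3 rose in each comparison. Eif5, of the protein that makes eIF2 hydrolyse its GTP, was at 340.5, 344, 357 and 365 CPM with vehicle, 464, 466, 501 and 499 CPM with insulin and 509, 508, 514 and 494 CPM with IGF-1 in IRflox cells. IRKO cells had 349, 336, 331 and 343 CPM with vehicle, 437, 425, 436 and 449 CPM with insulin and 458, 486, 468 and 456 CPM with IGF-1. Treated libraries all lay above vehicle, with log2 changes of 0.46, 0.53, 0.36 and 0.46 (standard error 0.035). Eif5a, of the hypusine-bearing factor that helps ribosomes through stretches that are hard to translate, rose by 0.39, 0.46, 0.35 and 0.43 (standard error 0.043). Its relative Eif5a2 had 0.086, 0.071, -0.11 and -0.074 (standard error 0.083) and passed in no comparison. Eif6, of the protein that keeps the large ribosomal subunit from joining too early, rose by 0.22, 0.35, 0.20 and 0.35 (standard errors 0.044 to 0.045). Eif5b, of the GTPase that joins the subunits, had 0.083, 0.08, -0.0041 and -0.04 (standard error 0.043), none past the threshold, and shares 16.8% of its exon length with Rev1 on the opposite strand.

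**Figure D4:**
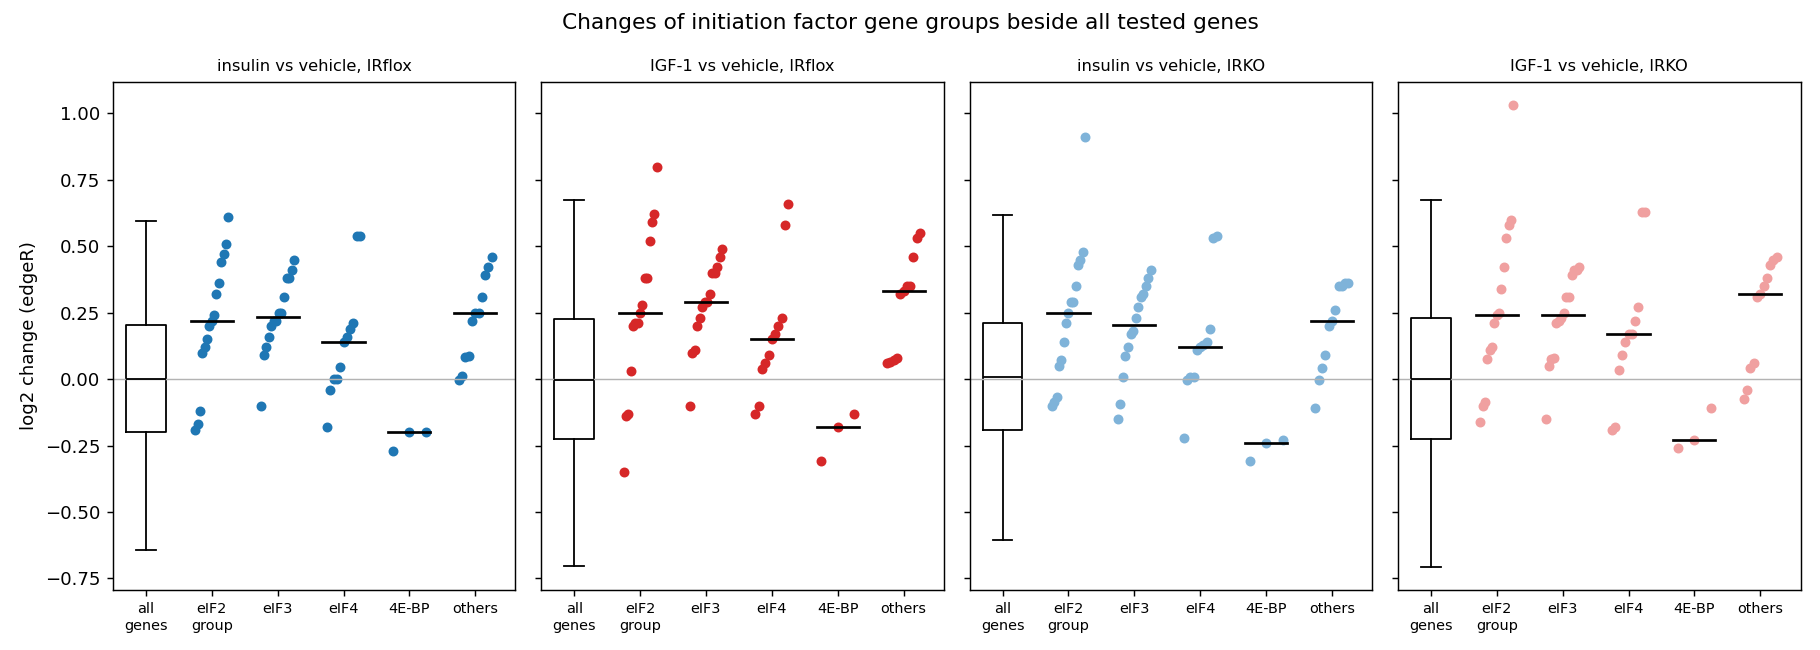
Log2 change against vehicle (y axes) of the genes of the eIF2 group, eIF3, eIF4, the 4E-binding proteins (4E-BP) and the other factors as points with a bar at each median, in a panel for each comparison. The box gives the quartiles and median of all 15599 tested genes, and its whiskers reach the 5th and 95th percentiles. Medians of the eIF2 group and eIF3 lie between 0.21 and 0.29, and the points of the 4E-binding proteins lie below 0 in each panel.

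The counts by group follow, in the same order of comparisons, and differences between the groups were not tested. The 15 genes of the eIF2 group had 8, 10, 10 and 9 rises and 3, 3, 0 and 1 falls. The 11 eIF4 factors had 6, 6, 6 and 7 rises and 1, 1, 1 and 2 falls, and the 3 binding protein genes had 0, 0, 0 and 0 rises and 2, 1, 2 and 2 falls. In IRflox cells the summed eIF4 level was 3961 ± 84.3 CPM with vehicle, 4578 ± 53.5 with insulin and 4696 ± 83.4 with IGF-1 (SD, n = 4). The summed eIF3 level was 1994 ± 67.05 CPM with vehicle, 2275 ± 31.8 with insulin and 2336 ± 69.1 with IGF-1, and that of the eIF2 group 999 ± 24.1 CPM with vehicle, 1204 ± 21.2 with insulin and 1223 ± 24.8 with IGF-1. These sums were higher with ligand, while that of the binding proteins was 162 ± 2.71 CPM with vehicle, 136 ± 2.30 with insulin and 134 ± 7.80 with IGF-1. In IRKO cells the summed eIF4 level was 3965 ± 21.8 CPM with vehicle, 4470 ± 46.4 with insulin and 4661 ± 20.3 with IGF-1, and that of the binding proteins 159 ± 8.09 CPM with vehicle, 134 ± 2.93 with insulin and 134 ± 3.26 with IGF-1.

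Over all 24 libraries, mean levels per kilobase of exon were highest for Eif5a at 189 CPM, Eif4g2 at 169, Eif4a1 at 161 and Eif1 at 155. They were lowest for Eif2b3 at 2.89, Eif2s3y at 1.325 and Eif3j2 at 0.581. Genes at both ends rose, such as Eif5a and Eif2b3, while Eif4b, at 57.5, fell.

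Insulin and IGF-1, given at the same dose and for the same time, were then compared directly. By edgeR 0 of the 54 genes passed in IRflox and 0 in IRKO cells, where 2.59% and 2.67% of all genes did. At an unadjusted p under 0.05 there were 12 and 11 genes, given without the share of all genes, so nothing is read from them. DESeq2 called Eif4a1 (-0.13, adjusted p = 0.0288) and Eif4e2 (-0.13, adjusted p = 0.0499) in IRflox, and Eif2s2 (-0.15, adjusted p = 0.0334) and Eif6 (-0.15, adjusted p = 0.04) in IRKO cells, all lower with insulin. The share of all genes that DESeq2 called is not given here, so these calls have no background. The insulin level was below the IGF-1 level for 42 of 54 genes in IRflox and 41 of 54 in IRKO cells, and for 7962 and 7742 of all 15599 genes. In edgeR the lowest p in IRflox cells was that of Eif2ak3, at 0.16 (95% interval 0.065 to 0.25, adjusted p = 0.0635). For Eif4e the insulin minus IGF-1 difference was -0.04 (-0.13 to 0.045) in IRflox and -0.10 (-0.19 to -0.017) in IRKO cells. For Eif4ebp2 it was 0.035 (-0.046 to 0.12) and 0.017 (-0.065 to 0.10).

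Levels in IRKO and IRflox cells were compared under each condition. Under vehicle 0 of 54 genes passed in edgeR, where 7.86% of all genes did. There were 9 at an unadjusted p under 0.05, again without the share of all genes, and nothing is read from that count. DESeq2 called Eif2b3 (-0.26, adjusted p = 0.0453) and Eif2ak3 (-0.15, adjusted p = 0.0375), both lower in IRKO cells. Shares of all genes called by DESeq2 or under other settings are not given here, so such calls have no background. With insulin 3 genes were lower in IRKO cells and 0 higher, where 5.53% of all genes were lower. They were Eif5 (-0.14, adjusted p = 0.00462), Eif2ak2 (-0.15, adjusted p = 0.0148) and Eif1a (-0.15, adjusted p = 0.0287). With IGF-1 Eif1a (-0.18, adjusted p = 0.0113) and Eif5 (-0.12, adjusted p = 0.0331) were lower and 0 higher, where 3.15% of all genes were lower. The counts of lower genes with insulin and with IGF-1 are near the shares of all genes, and nothing is read from them. The shares of all genes that were higher are not given here, so the counts of 0 have no background. Other settings changed the calls of the genes named. With library sizes alone the insulin call of Eif1a was lost and Eif2d was called higher in IRKO cells (0.18, adjusted p = 0.0325), as it was among genes with a mean CPM of at least 1 (0.17, adjusted p = 0.0414). DESeq2 also called Eif3c lower in IRKO cells with insulin (-0.095, adjusted p = 0.0366) and with IGF-1 (-0.10, adjusted p = 0.0385). A fit of the IGF-1 groups alone called Eif4a2 higher in IRKO cells (0.11, adjusted p = 0.0465). The Insr differences in the same comparisons were -0.61, -0.78 and -0.68.

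Of these 5 calls, 4 were lost in at least 1 fit that left out a library. The Eif2ak2 call was lost without IRKO insulin replicate 3 (-0.12). The Eif1a call with insulin was lost without IRflox insulin replicate 3 or 4 or IRKO insulin replicate 1 or 2, in fits that ran from -0.17 to -0.13. With IGF-1 the Eif1a call was lost without IRflox IGF-1 replicate 2 (fits from -0.21 to -0.16), and the Eif5 call without IRflox IGF-1 replicate 1, 2 or 3 or IRKO IGF-1 replicate 1, 3 or 4 (fits from -0.14 to -0.11). The Eif5 call with insulin was kept in all 24 such fits. With the microglia score in the fit, 1 gene passed with insulin (Eif3g, -0.32) and 1 with IGF-1 (Eif1a, -0.18). The Eif3g means with insulin were 79.5 CPM in IRflox and 74.2 CPM in IRKO cells. The score and the genotypes can hardly be told apart in that fit, and its share of all genes is not given. Nothing is therefore read from these calls.

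The test of whether genotype altered the response called 0 of 54 genes for insulin and 0 for IGF-1, in edgeR and in DESeq2, and edgeR called 0% of all genes. At an unadjusted p under 0.05 there were 2 and 2 of the 54, beside 838 and 822 of all genes. These counts are not above the share of all genes, and nothing is read from them. Eif2b3 was among the 2 for each ligand, with differences of 0.30 (95% interval 0.074 to 0.52) for insulin and 0.23 (0.013 to 0.45) for IGF-1. Both tests use the same vehicle libraries, so they are not independent. Eif2b3 means in IRflox and IRKO cells were 13.5 and 11.3 CPM with vehicle, 20.6 and 21.2 with insulin, and 23.4 and 23.05 with IGF-1. The other genes at that p were Eif3k for insulin, given above, and Eif2ak3 for IGF-1, at 0.19 (0.058 to 0.32). For Eif4e the difference was -0.019 (-0.14 to 0.10) and 0.044 (-0.079 to 0.17), and for Eif4a1 0.0015 (-0.10 to 0.11) and -0.028 (-0.13 to 0.079). For Eif4ebp2 it was 0.032 (-0.082 to 0.15) and 0.05 (-0.064 to 0.16). A gene past the threshold in 1 genotype alone, such as Eif2d or Eif2ak1, is therefore not shown to differ between genotypes.

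Lists of other genes give the surroundings of the initiation factors. Over all tested genes 24.3, 26.4, 24.7 and 26.9% rose and 21.4, 24.4, 21.7 and 25.1% fell in the 4 comparisons, the background for each count that follows. Of 20 genes around mTORC1 and the control of eIF4E and eIF4B, 5, 7, 5 and 8 rose and 6, 6, 6 and 6 fell, with median log2 changes of 0.038, 0.061, 0.0056 and 0.04. These counts are near the background, and nothing is read from them. The 3 with the lowest p all fell. Gigyf1, of a partner of the repressor that Eif4e2 encodes, was at 95.15 ± 4.83 CPM in IRflox vehicle libraries, 54.6 ± 3.16 with insulin and 50.8 ± 2.999 with IGF-1 (SD, n = 4), and its log2 changes were -0.80, -0.90, -0.67 and -0.77. Tsc1, of a brake on mTORC1, had -0.58, -0.59, -0.47 and -0.52, and Mknk2, of a kinase of eIF4E, had -0.44, -0.53, -0.38 and -0.47. Of 18 helpers at the cap, at the poly(A) tail and in scanning, 12, 11, 10 and 11 rose and 1, 1, 1 and 2 fell, with medians of 0.23, 0.26, 0.19 and 0.26. Abce1, which splits ribosomes after termination, rose by 0.62, 0.66, 0.55 and 0.64, Pabpc4, of a poly(A)-binding protein, by 0.61, 0.68, 0.53 and 0.61, and Dhx29, of a scanning helicase, by 0.52, 0.56, 0.59 and 0.62.

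Of 16 genes of the integrated stress response around eIF2, 9, 8, 8 and 8 rose and 3, 3, 4 and 3 fell, with medians of 0.16, 0.12, 0.13 and 0.11. Hspa5, of the chaperone that holds PERK inactive, rose by 0.75, 0.70, 0.76 and 0.78, and Dnajc3, of a chaperone partner known to inhibit eIF2 kinases, by 0.46, 0.41, 0.47 and 0.51. Ppp1r15a, of the phosphatase subunit that restores eIF2, had log2 changes of -0.67, -0.68, -0.68 and -0.63 and fell in each comparison. Of 17 elongation and termination factor genes, 11, 13, 12 and 12 rose and 0, 1, 0 and 1 fell, with medians of 0.21, 0.26, 0.21 and 0.24. The 3 with the lowest p were Eef1e1 (1.04, 1.15, 0.85 and 1.05), Eef1g (0.48, 0.55, 0.44 and 0.51) and Gspt1, of a release factor (0.39, 0.40, 0.37 and 0.44). The Eef1e1 protein is known as part of the tRNA synthetase complex, although its symbol places it with elongation factors.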

How the data were processed

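Poly-A, non-stranded libraries were read from 24 samples, 4 in each of 6 groups. The authors deposited gene-level read counts without normalization. Per the submitters' processing notes, STAR 2.7.7a and the genome mm10 were used. No source used here gives the counting program or its annotation. The libraries hold 15429688 to 19010986 gene counts, with 14.5% to 23.2% of reads outside genes. From these counts, genes were kept by filterByExpr (minimum count 10, minimum total 15), scaled by TMM, and tested with edgeR 4.0.16 quasi-likelihood fits in R 4.3.3, with 1 mean per group over all 24 libraries and Benjamini-Hochberg adjustment over 15599 genes. CPM is scaled by the TMM library sizes, and CPM per kilobase uses the joined exon length of GENCODE M21. Alternatives used DESeq2 1.42.0, other scalings and filters, a replicate block, only the groups compared, each library left out, and, added after seeing the data, a microglia marker score as covariate. The scripts were tested on simulated data.

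All members may be named. Of eIF3, the 4 genes with the largest and the 4 with the smallest mean change are described, and of each other list the 3 with the lowest mean rank of p. The members, lists and tests were chosen with earlier results of these data known. Gene positions are from GENCODE M21 (GRCm38), promoter stretches from RefSeq (GRCm38.p6), 250 bases before to 50 after the start.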

Additional observations from a re-analysis of the deposited data

Results flagged for a closer look

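Of 324 sets of 4 libraries (54 genes in 6 groups), 18 (5.56%) held a library that lay apart by Dixon's test at the 95% level. Chance alone gives about 1 in 20 such sets, so the number is near what chance gives.

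Among IRflox vehicle libraries, Eif3e was at 112.1 CPM in replicate 3, above 99.16 to 100.8 CPM in the others. Among IRflox insulin libraries, Eif2ak4 was at 27.69 CPM in replicate 2, below 31.94 to 32.59 CPM in the others, and Eif2b3 was at 22.74 CPM in replicate 4, above 19.88 to 19.93 CPM in the others. Among IRflox IGF-1 libraries, Eif4e was at 148.4 CPM in replicate 1, below 153.6 to 154.4 CPM in the others, and Eif4ebp2 was at 95.93 CPM in replicate 1, below 105.3 to 106.9 CPM in the others. In the same group, Eif4g2 was at 1740 CPM in replicate 1, below 1799 to 1809 CPM in the others. Among IRKO vehicle libraries, Eif2ak2 was at 172 CPM in replicate 3, below 176.9 to 177.4 CPM in the others, and Eif2s2 was at 100.7 CPM in replicate 2, below 106.4 to 107.2 CPM in the others. In the same group, Eif3c was at 347.6 CPM in replicate 1, below 371.9 to 373.4 CPM in the others, and Eif3j2 was at 2.684 CPM in replicate 1, above 1.039 to 1.226 CPM in the others. In the same group, Eif3m was at 54.1 CPM in replicate 2, below 57.57 to 58.23 CPM in the others. Among IRKO insulin libraries, Eif1a was at 101 CPM in replicate 4, above 97.93 to 98.44 CPM in the others, and Eif2b3 was at 19.78 CPM in replicate 2, below 21.59 to 21.69 CPM in the others. In the same group, Eif3g was at 80.75 CPM in replicate 1, above 71.04 to 72.67 CPM in the others, and Eif4h was at 241.9 CPM in replicate 1, above 222.6 to 224.6 CPM in the others. Among IRKO IGF-1 libraries, Eif1b was at 61.95 CPM in replicate 3, below 64.93 to 64.98 CPM in the others, and Eif2ak3 was at 72.78 CPM in replicate 1, above 64.98 to 66.23 CPM in the others. In the same group, Eif5b was at 171.6 CPM in replicate 1, above 165.4 to 166.4 CPM in the others.

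The Eif2b3 and Eif4ebp2 rises and falls reported above kept their calls without each of these libraries in turn, and Eif3j2, whose deviating library lies near the level threshold, passed in no comparison.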

How the results depend on the processing

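Over the planned settings other than leaving out libraries, the number of initiation factor genes that changed against vehicle was 37 to 39 (insulin, IRflox), 38 to 41 (IGF-1, IRflox), 36 to 37 (insulin, IRKO) and 38 to 39 (IGF-1, IRKO), beside 38, 39, 37 and 38 as reported. Replicate numbers did not pair the libraries: 60 pairs with the same number had correlations from -0.115 to 0.0611, and with the replicate block 38, 40, 37 and 39 genes passed. Counts that moved by over 1.5 times were, by setting, these. With the microglia score, the count was 3 for falls with insulin in IRflox, 3 for falls with IGF-1 in IRflox, 3 for falls with IGF-1 in IRKO, 1 for insulin vs IGF-1 in IRKO, 1 for IRKO vs IRflox with insulin and 1 for IRKO vs IRflox with IGF-1. With library sizes alone, the count was 1 for insulin vs IGF-1 in IRflox. With DESeq2, the count was 2 for insulin vs IGF-1 in IRflox, 2 for insulin vs IGF-1 in IRKO and 2 for IRKO vs IRflox with vehicle. With no filter on low counts, the count was 2 for insulin vs IGF-1 in IRflox and 2 for insulin vs IGF-1 in IRKO. With the replicate block, the count was 1 for insulin vs IGF-1 in IRKO and 1 for IRKO vs IRflox with vehicle. With only the groups compared in the fit, the count was 2 for insulin vs IGF-1 in IRKO. With DESeq2 size factors in edgeR, the count was 2 for IRKO vs IRflox with vehicle. With a minimum mean CPM of 1, the count was 2 for IRKO vs IRflox with vehicle. Leaving out each library gave 3 to 5 for falls with insulin in IRKO, 0 to 1 for insulin vs IGF-1 in IRflox, 0 to 2 for insulin vs IGF-1 in IRKO, 0 to 2 for IRKO vs IRflox with vehicle and 0 to 2 for IRKO vs IRflox with IGF-1. Log2 values that changed sign, the cause of which was not tested, were as follows. With the microglia score: Eif1ad with insulin in IRflox (0.051), Eif2ak1 with insulin in IRKO (0.027), Eif2ak1 with IGF-1 in IRKO (0.02), Eif2ak4 with insulin in IRflox (-0.037), Eif3f with insulin in IRflox (0.024), Eif3f with insulin in IRKO (0.046), Eif3f with IGF-1 in IRKO (0.0087), Eif3j2 with insulin in IRKO (0.044), Eif4ebp3 with insulin in IRflox (0.021), Eif4ebp3 with IGF-1 in IRflox (0.0092), Eif4ebp3 with insulin in IRKO (0.019), Eif4ebp3 with IGF-1 in IRKO (0.17), Eif4enif1 with insulin in IRflox (-0.047), Eif4enif1 with IGF-1 in IRKO (-0.034), Eif5b with insulin in IRKO (0.072) and Eif5b with IGF-1 in IRKO (0.046). With library sizes alone: Eif3k with insulin in IRKO (-0.005), Eif4e2 with insulin in IRKO (-0.0043), Eif4e3 with insulin in IRflox (-0.016), Eif4enif1 with insulin in IRflox (-0.0047), Eif4h with insulin in IRflox (-0.017) and Eif4h with insulin in IRKO (-0.0041). With DESeq2 size factors in edgeR: Eif3k with insulin in IRKO (-0.0016), Eif4e2 with insulin in IRKO (-0.0007), Eif4e3 with insulin in IRflox (-0.0095), Eif4h with insulin in IRflox (-0.01) and Eif4h with insulin in IRKO (-0.00082). With DESeq2: Eif3k with insulin in IRKO (-0.0016), Eif4e2 with insulin in IRKO (-0.00078), Eif4e3 with insulin in IRflox (-0.0095), Eif4h with insulin in IRflox (-0.011) and Eif4h with insulin in IRKO (-0.00071). With no filter on low counts: Eif3k with insulin in IRKO (-0.0054), Eif4e2 with insulin in IRKO (-0.0047) and Eif4h with insulin in IRKO (-0.0044). With a minimum mean CPM of 1: Eif3k with insulin in IRKO (-0.0029), Eif4e2 with insulin in IRKO (-0.0021), Eif4e3 with insulin in IRflox (-0.022), Eif4enif1 with insulin in IRflox (-0.011), Eif4h with insulin in IRflox (-0.023) and Eif4h with insulin in IRKO (-0.0021). With only the groups compared in the fit: Eif4e3 with insulin in IRflox (-0.0099) and Eif4h with insulin in IRflox (-0.011). Over fits without each library, signs changed within these ranges: Eif1ad with insulin in IRflox (-0.057 to 0.037), Eif2b2 with IGF-1 in IRflox (-0.0048 to 0.045), Eif2s3y with insulin in IRKO (-0.026 to 0.12), Eif3j2 with insulin in IRKO (-0.53 to 0.27), Eif3j2 with IGF-1 in IRKO (-0.024 to 0.63), Eif3k with insulin in IRKO (-0.045 to 0.037), Eif3k with IGF-1 in IRKO (-0.0095 to 0.063), Eif4e2 with insulin in IRKO (-0.014 to 0.019), Eif4e3 with insulin in IRflox (-0.045 to 0.027), Eif4e3 with insulin in IRKO (-0.065 to 0.047), Eif4ebp3 with IGF-1 in IRKO (-0.17 to 0.0011), Eif4enif1 with insulin in IRflox (-0.022 to 0.034), Eif4h with insulin in IRflox (-0.031 to 0.016), Eif4h with insulin in IRKO (-0.031 to 0.023), Eif4h with IGF-1 in IRKO (-0.00028 to 0.054) and Eif5b with insulin in IRKO (-0.036 to 0.01). Except for Eif3f with IGF-1 in IRKO cells, no value with a call changed sign. Beside those given above, some values without a call passed in fits that left out a library. They were Eif2a with insulin in IRflox and IGF-1 in IRKO, Eif2b2 with insulin in IRflox, and Eif2ak1 and Eif4e2 with IGF-1 in IRKO. At 15429688 counts or more per library, depth limits Eif3j2 and Eif2s3y most, and a threshold of 5 CPM gives 53 members. The libraries' origin, near copies and overlapping genes limit the rest.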
